A study of Homo sapiens with 40 samples.

Results

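NF-kB target genes, chemokines and cytokines were followed in 10 cell lines of human non-small cell lung cancer given either the vehicle dimethyl sulfoxide (DMSO) or GSK3368712, which inhibits type I protein arginine methyltransferases. The set holds 36 genes named by symbol, of 19280 genes with values in at least 1 line. It comprises 11 chemokines, 8 cytokines, 4 NF-kB subunits, 6 inhibitors and feedback regulators, and 7 survival, adhesion and other targets. The study made 40 RNA-seq libraries, 2 per arm and line, and by the row labels 4 lines (PC9, NCIH522, NCIH1975 and NCIH1563) are adenocarcinoma of the lung, LUAD, and 6 (SW900, SKMES1, NCIH520, NCIH226, LK2 and EBC1) squamous cell carcinoma, LUSC. Each line is a single established culture with no co-cultured cells named in the labels, and the dose and time are not spelled out. The values are those of the authors' deposited table, which holds for each gene and line the log2 fold change, its standard error, an adjusted p and the mean normalized count. Positive values are taken to mean higher with GSK3368712, since the row labels put the compound before DMSO. The labels give no word on separate cultures for the 2 libraries of an arm, so the authors' p-values measure the spread between libraries, which may be technical.

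NF-kB transcription factors are dimers of RELA, RELB, REL and the processed forms of NFKB1 and NFKB2, held in the cytoplasm by inhibitors of the IkB family. Signals from tumor necrosis factor, interleukin-1 and Toll-like receptors free the dimers through the IkB kinases, and they then switch on chemokines, cytokines, survival genes and their own inhibitors, which close the loop. In lung cancer cells these secreted products are known for drawing neutrophils, monocytes and T cells, depending on the chemokine.

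Markers of cell types were checked in the same table. Epithelial markers were listed at 3 to 5 of 5 per line, with a summed level of 70.6 to 12826 CPM (the line's mean normalized counts scaled to a common total). Squamous markers were listed at 0 to 4 of 7 (DSG3 and KRT14 in no line) and adenocarcinoma markers at 1 to 4 of 6 (SFTPC in no line), so the subtype names rest on the row labels. Leukocyte markers were listed at 0 to 3 of 7, reaching 181 CPM in sum. PTPRC and CD3E, which define leukocytes and T cells, were listed in no line, CD3D in SKMES1 alone, CD14 and ITGAM in 2 lines each and CD68, a lysosomal protein of macrophages, in 8. Endothelial markers were listed at 0 to 1 of 4 (VWF in no line) and fibroblast markers at 1 to 3 of 5, with sums of up to 126 and 1321 CPM. Some markers changed with treatment in lines that lead the results, and their part in those results was not tested. In EBC1 all 5 epithelial markers were lower, from KRT18 at −0.62 to EPCAM at −0.35, and the 3 adenocarcinoma markers listed were higher in the authors' deposited table. In NCIH1563 CD68 was higher (2.51), PECAM1 of endothelium lower (−1.53), the fibroblast markers COL1A1 higher (2.01) and COL3A1 (−0.94) and PDGFRB (−1.18) lower, and 2 of 3 epithelial markers listed higher in the authors' deposited table. In bulk RNA, fewer cells of a type and less RNA per cell cannot be told apart.

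Of 360 possible pairs of member and line, the authors' deposited table lists 246, and at the authors' adjusted p of at most 0.05 it has 66 higher and 32 lower with GSK3368712, beside 13.7% higher and 13.8% lower of the 135786 pairs listed over all genes. A gene is listed only above the authors' expression cutoff (an FPKM of 1), so a member that is low in both arms is not counted, and one that is low in a single arm may be listed through the other. All 36 members were listed in at least 1 line, 11 of them in all 10 lines, 27 in at least 5 and 9 in 4 or fewer. The response differed in both size and direction from line to line.

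NCIH1563 had the largest share of listed members called higher. Of its 27 listed members, 17 were higher and 3 lower in the authors' deposited table, where 23.3% of all listed genes were higher and 24.8% lower in that line. CXCL8, IL6, IL1A, IL32 and CCL2 (not called) were low with DMSO in this line, at 17.2 to 38.9 implied normalized counts. BIRC3 was low for its length, at 60.1 with DMSO and a mean over both arms of 0.37 CPM per kilobase of its longest transcript. These members may be listed through the treated arm. The top 75% of the line's genes by mean normalized count leave out these members and IL1B, NFKBIZ and TRAF1. Within that part, 10 of 18 members were higher and 3 lower in the authors' deposited table (Benjamini-Hochberg adjusted again), beside 26.5% and 26.2% of all genes kept. SKMES1, which listed 35 members, had 14 higher and 8 lower in the authors' deposited table, where 15.8% and 15.6% of all listed genes were called. EBC1 had 10 of 27 higher and 5 lower in the authors' deposited table, beside 23% and 23.4% of all genes. NCIH1975 had 6 of 25 higher and 0 lower in the authors' deposited table, beside 4.33% and 3.58% of all genes.

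Of the remaining lines, NCIH226 and SW900 had both shares of members above those of all listed genes (23.3% higher and 26.7% lower in each). The others had 4 calls or fewer. NCIH226 had 7 of 30 higher and 8 lower in the authors' deposited table, beside 15.5% and 15.8% of all genes. SW900 also had 7 of 30 higher and 8 lower in the authors' deposited table, beside 18% and 17.7%. LK2 listed 13 members, 4 of them higher and 0 lower in the authors' deposited table, beside 19.9% and 19.5% of all genes. NCIH520 had 1 of 17 higher and 0 lower in the authors' deposited table, beside 11.4% and 12.3%. In NCIH522, 0 of 19 listed members were called either way in the authors' deposited table, beside 0.912% higher and 0.75% lower over all genes. PC9 likewise had 0 of 23 in the authors' deposited table, beside 2.56% and 1.92%.

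**Figure D1:**
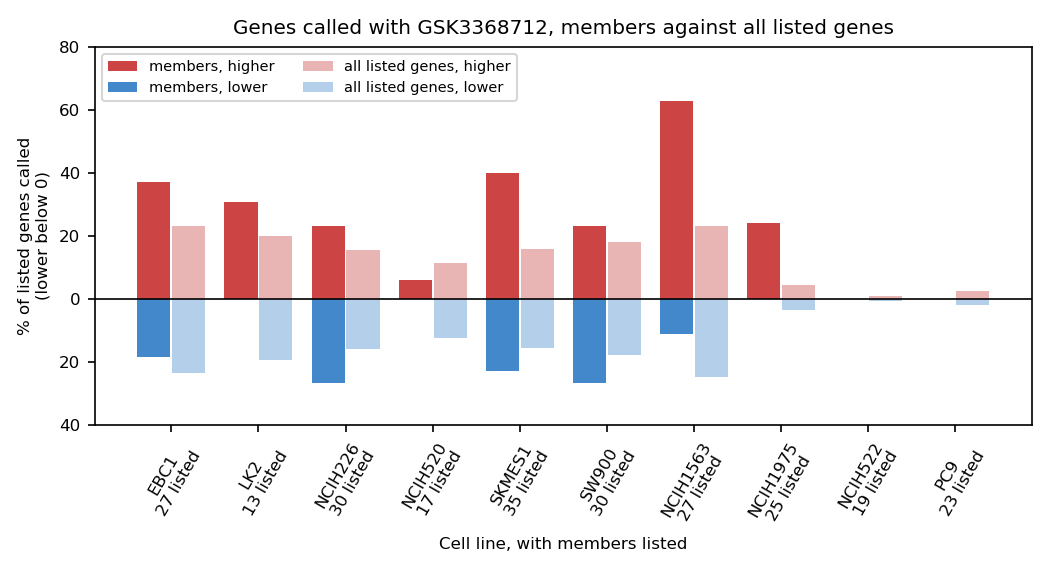
Percent of listed genes called at an adjusted p of at most 0.05 in each line, higher above 0 and lower below 0, for the members (dark bars) and all listed genes of the line (pale bars). NCIH1563 had 63% of its 27 listed members higher beside 23.3% of all genes, and NCIH522 and PC9 had none called.

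**Figure D2:**
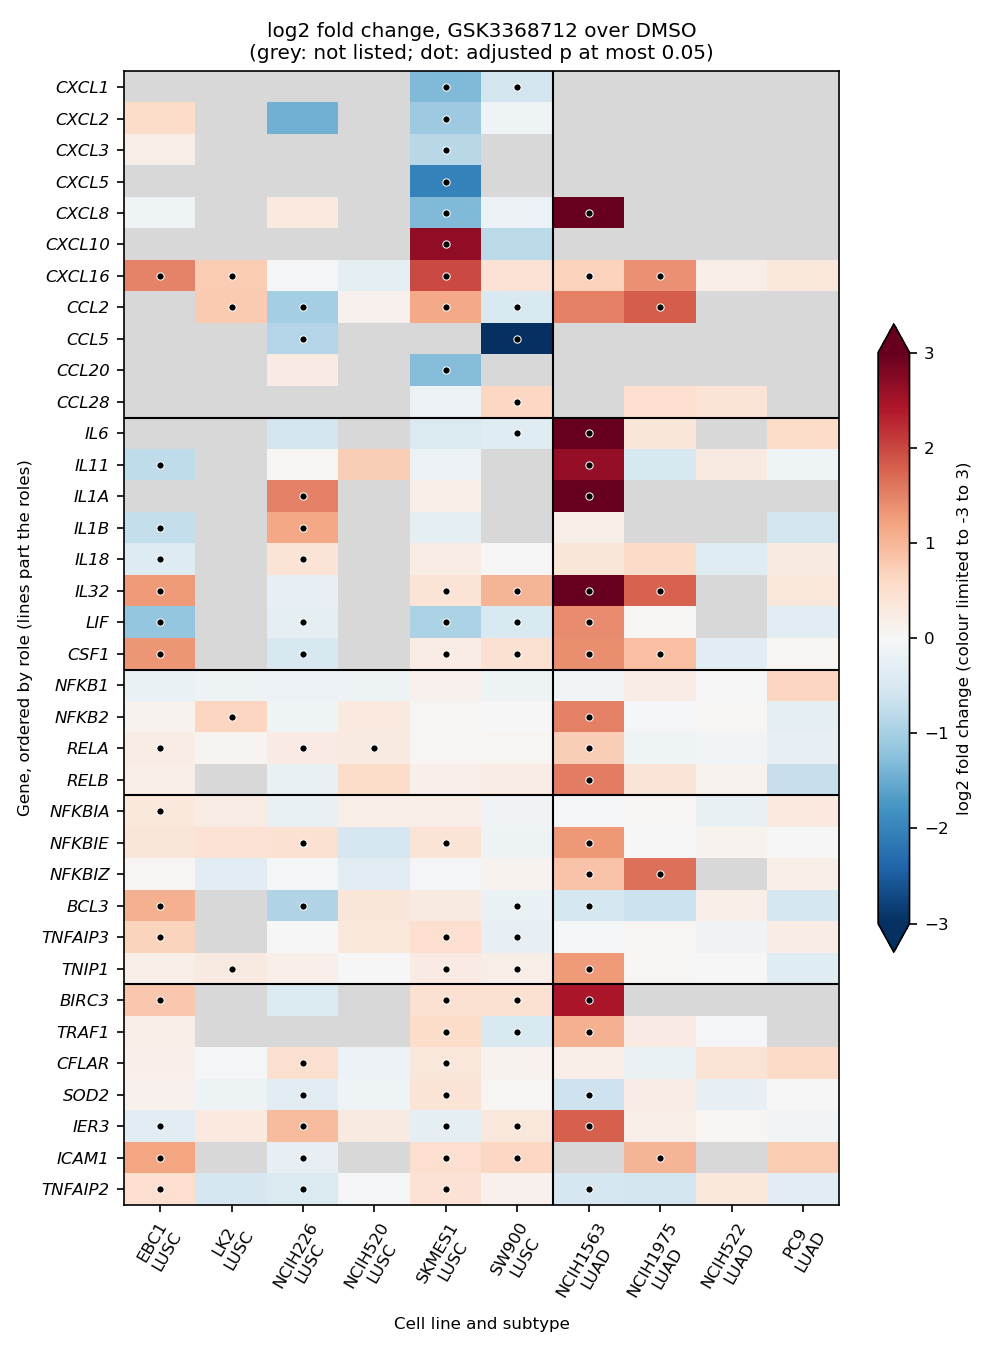
Log2 fold change of each member (rows, by role) in each cell line (columns), with GSK3368712 over DMSO in red for higher and blue for lower, grey for not listed and a dot for an adjusted p of at most 0.05. The NCIH1563 column holds 17 dotted red cells, and the chemokine rows of SKMES1 hold 6 dotted blue ones.

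Among the chemokines, those that draw neutrophils through CXCR1 and CXCR2 fell together in SKMES1. CXCL5, listed in that line alone, fell by 2.03 on the log2 scale (standard error 0.11, adjusted p = 8.3e-77) in the authors' deposited table. Its mean normalized count and fold change there imply 29030 normalized counts per library with DMSO and 7093 with GSK3368712. Scaled by length (CPM per kilobase of the longest transcript), CXCL5 had a level of 115 in SKMES1, above the median level over lines of every other member. CXCL8, CXCL1 and CXCL2 fell by 1.33, 1.31 and 1.08 in SKMES1 (adjusted p = 7.15e-18, 2.11e-09 and 9.34e-05 in the authors' deposited table). CXCL3 fell by 0.84 (adjusted p = 0.0144 in the authors' deposited table). CCL20, which attracts CCR6-bearing lymphocytes and dendritic cells, fell by 1.30 there (adjusted p = 0.0282 in the authors' deposited table). CXCL6, no member but a gene of the same cluster on chromosome 4, stood at −0.86 with an adjusted p of 0.144 in the authors' deposited table.

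These 6 chemokine genes are shown by the stretch of their promoters that holds an NF-kB (kB) motif, because they fell together. CXCL10, which rose in the same line from a low level with DMSO, follows for comparison. The sequences are from RefSeq (GRCh38.p14), 5′ to 3′ on the gene's strand, and capitals mark every base inside a match.
CXCL1: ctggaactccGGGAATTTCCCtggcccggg
CXCL2: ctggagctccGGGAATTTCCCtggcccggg
CXCL3: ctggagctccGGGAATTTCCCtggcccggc
CXCL5: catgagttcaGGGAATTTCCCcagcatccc
CXCL8: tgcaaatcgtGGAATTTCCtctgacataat
CCL20: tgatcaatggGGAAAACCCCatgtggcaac
CXCL10: tctgcaacatGGGACTTCCCcaggaacagc
They lie at chr4:73869304-73869333 (CXCL1, plus strand), chr4:74099254-74099283 (CXCL2, minus), chr4:74038749-74038778 (CXCL3, minus) and chr4:73998749-73998778 (CXCL5, minus). The others lie at chr4:73740468-73740497 (CXCL8, plus), chr2:227813753-227813782 (CCL20, plus) and chr4:76023600-76023629 (CXCL10, minus). Counted from the transcription start, the capitals begin at −79 in CXCL1, CXCL3 and CCL20, at −78 in CXCL2, at −91 in CXCL5 and CXCL8, and at −122 in CXCL10. CXCL1, CXCL2, CXCL3 and CXCL5 share the same run of capitals, and in CXCL1, CXCL2 and CXCL3 the flanking bases are nearly the same as well.

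The search covered windows of 300 bases, 250 before to 50 after each start, for the 10-letter kB consensus and for GGNNTTTCC, on both strands and with overlapping matches allowed. The shorter motif overlaps the consensus in most matches. Of 35116 windows in the RefSeq table, 5.91% held the consensus, 6.26% the shorter motif and 10.5% either of them. The table has windows for 27 of the 36 members, and 21 of these 27 had a match in at least 1 of their windows. Of the 44 member windows, 23 (52.3%) had a match. The genes were named as NF-kB targets, and a match is a description of the letters. The falling chemokines and CXCL10 each carry one. CXCL16 and CCL2, which also rose in SKMES1, had no match found, for want of a window or of the letters. A link between a match and the direction was not tested.

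CXCL1, CXCL2 and CXCL3 are close paralogs. Of the 31-base words in their GENCODE 29 transcripts, 13.8% of those of CXCL1, 22.4% of CXCL2 and 9.54% of CXCL3 also occur in another gene of the group CXCL1, CXCL2, CXCL3, CXCL5, CXCL6 and CXCL8. CXCL5 shares 1.87% and CXCL8 0%. Reads of the first 3 genes may therefore be split between them by the counting, while CXCL5 and CXCL8 are nearly free of shared words.

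The neutrophil chemokines did not fall in every line that listed them. CXCL8 (ENSG00000169429, chromosome 4, 73740506 to 73743716) was listed in 5 lines and stood at −0.12 in EBC1, 0.30 in NCIH226, −1.33 in SKMES1, −0.18 in SW900 and 4.85 in NCIH1563 in the authors' deposited table. NCIH1563 was thus far above the rest, with a standard error of 0.42 and an adjusted p of 5.92e-29 in the authors' deposited table. The implied level there was 21.8 normalized counts with DMSO and 626.8 with GSK3368712. In SKMES1 it went from 1370 to 544.6. The gene thus changed in opposite directions in the 2 lines, both past the authors' threshold. CXCL1 also fell in SW900, by 0.55 (adjusted p = 0.0364 in the authors' deposited table). CXCL2 stood at 0.55 in EBC1, −1.44 in NCIH226 and −0.14 in SW900 in the authors' deposited table, none with an adjusted p of at most 0.05. Neither CXCL3 in EBC1 (0.17) nor CCL20 in NCIH226 (0.24) passed in the authors' deposited table.

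While those chemokines fell in SKMES1, 3 other members among the chemokines rose in the same cells. CXCL10 (ENSG00000169245, chromosome 4, 76021117 to 76023497), an interferon-induced ligand of CXCR3 on T cells, rose by 2.65 (standard error 0.56, adjusted p = 2.29e-05 in the authors' deposited table), from an implied 13.7 to 86.2 normalized counts. It was thus low with DMSO and may be listed there through the treated arm. In SW900, the only other line listing it, CXCL10 stood at −0.81 (adjusted p = 0.217 in the authors' deposited table). CXCL11, its neighbor and no member, showed the same opposition with calls on both sides, at 3.25 in SKMES1 and −1.87 in SW900 (adjusted p = 1.41e-13 and 0.00297 in the authors' deposited table). CXCL16, a transmembrane chemokine for CXCR6, rose by 1.97 in SKMES1, and CCL2, the main monocyte chemokine, by 1.13 (adjusted p = 2.28e-14 and 2.76e-13 in the authors' deposited table). Of the 4 other chemokines of the pathway lists that SKMES1 listed, 3 rose, namely CXCL11, CCL26 (1.92), a chemokine of eosinophils, and CX3CL1 (0.84), a membrane-bound chemokine, in the authors' deposited table.

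**Figure D3:**
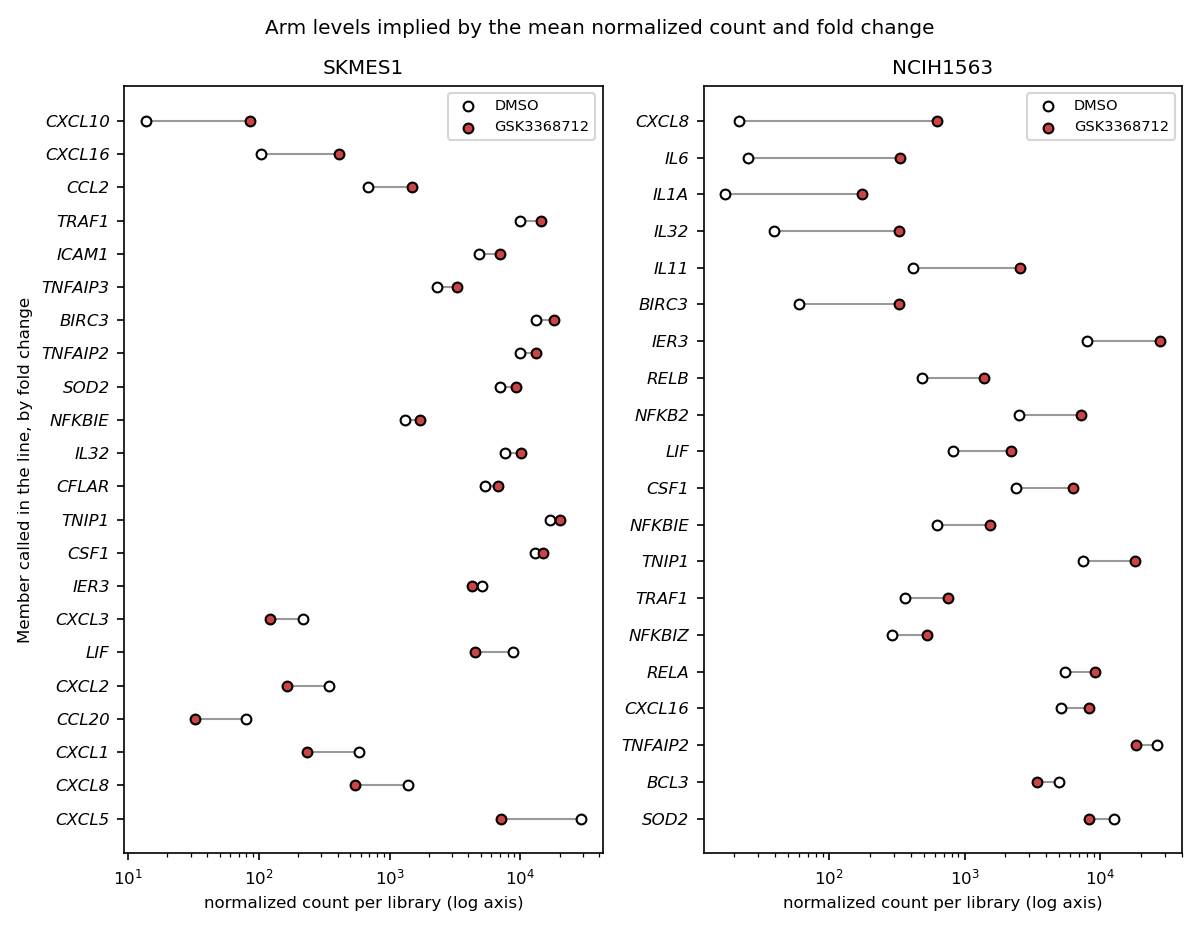
Normalized count per library in each arm (log axis; open circles DMSO, red circles GSK3368712) for the members called in SKMES1 and NCIH1563, computed from the mean normalized count and fold change and ordered by fold change. In SKMES1 CXCL5 went from 29030 to 7093 while CXCL10 went from 13.7 to 86.2, and in NCIH1563 CXCL8 went from 21.8 to 626.8.

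CCL5, a chemokine that draws T cells and monocytes, had the largest fall of any member. In SW900 it fell by 3.25 (standard error 0.19, adjusted p = 1.96e-64 in the authors' deposited table), from an implied 1004 to 105.3 normalized counts. CCL5 (ENSG00000271503, chromosome 17, 35871491 to 35880793) overlaps an antisense transcript, and no source used here gives the strand of the counting. In NCIH226, the only other line that listed it, CCL5 fell by 0.88 (adjusted p = 0.00326 in the authors' deposited table). CCL2 had calls in both directions. In the authors' deposited table it was higher in LK2 (0.80), SKMES1 (1.13) and NCIH1975 (1.82), lower in NCIH226 (−1.01) and SW900 (−0.45), and not called in NCIH520 (0.13) and NCIH1563 (1.5, adjusted p = 0.057). The lines in which CCL2 fell are those in which CCL5 fell. CCL28, a mucosal chemokine, ranged from −0.18 to 0.62 over 4 lines and was called in SW900 alone, higher, in the authors' deposited table.

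CXCL16 (ENSG00000161921, chromosome 17, 4733526 to 4739922) was the one chemokine listed in every line. In the LUSC lines it stood at 1.5 in EBC1, 0.77 in LK2, −0.04 in NCIH226, −0.28 in NCIH520, 1.97 in SKMES1 and 0.43 in SW900 in the authors' deposited table. In the LUAD lines it stood at 0.68 in NCIH1563, 1.36 in NCIH1975, 0.20 in NCIH522 and 0.34 in PC9 in the authors' deposited table. It was called higher in 5 lines (EBC1, LK2, SKMES1, NCIH1563 and NCIH1975) and lower in 0. In SKMES1 and NCIH1975 it was low with DMSO, at 104.1 and 166.9 implied normalized counts, and may be listed through the treated arm. CXCL16 overlaps MED11 on the opposite strand, and CXCL10, IL6, IL18, IL32, LIF, RELA, TNFAIP3, CFLAR, SOD2 and IER3 also overlap transcripts on the other strand.

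The cytokines gave their largest changes in NCIH1563, where 6 of 8 were called higher and 0 lower in the authors' deposited table. Of all genes listed in that line, 23.3% were higher and 24.8% lower. Among the cytokines called, IL6, IL1A and IL32 were low with DMSO and may be listed through the treated arm. IL6 (ENSG00000136244, chromosome 7, 22725884 to 22732002), which signals through STAT3, rose by 3.71 (standard error 0.43, adjusted p = 1.44e-16 in the authors' deposited table), from an implied 25.2 to 330.5 normalized counts. IL1A (ENSG00000115008, chromosome 2, 112773915 to 112784590), an alarmin of the interleukin-1 family, rose by 3.36 and went from 17.2 to 176 (adjusted p = 1.69e-08 in the authors' deposited table). IL11 rose by 2.63, LIF by 1.43 and CSF1 by 1.40 (adjusted p = 1.6e-32, 1.1e-10 and 1e-13 in the authors' deposited table). IL11 and LIF share the receptor subunit gp130 with IL6, and CSF1 is the growth factor of macrophages.

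The promoters of IL6 and IL32, which rose most among the cytokines beside IL1A, also hold a kB match and are shown in the same way.
IL6: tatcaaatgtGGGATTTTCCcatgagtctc
IL32: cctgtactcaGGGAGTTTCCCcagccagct
They lie at chr7:22727117-22727146 (IL6) and chr16:3065294-3065323 (IL32), both on the plus strand of GRCh38.p14, with the capitals beginning at −73 and −99 from the RefSeq start.

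Outside NCIH1563, IL6 and IL11 lay between −0.76 and 0.74, and each was called in 1 line, lower. IL6 stood at −0.56 in NCIH226, −0.43 in SKMES1, −0.37 in SW900, 0.36 in NCIH1975 and 0.55 in PC9 in the authors' deposited table, and of these only the fall in SW900 passed (adjusted p = 0.0266). IL11 fell by 0.76 in EBC1 (adjusted p = 0.000157 in the authors' deposited table) and was not called in NCIH226, NCIH520, SKMES1, NCIH1975, NCIH522 or PC9, at −0.47 to 0.74.

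The interleukin-1 family members rose in NCIH226. IL1A rose there by 1.51 and IL1B, a secreted cytokine that caspase-1 cleaves, by 1.17 (adjusted p = 0.000655 and 2.34e-08 in the authors' deposited table), and IL18 by 0.41 (adjusted p = 0.00365 in the authors' deposited table). With DMSO, IL1A was low in NCIH226, at 58.2 implied normalized counts, and may be listed there through the treated arm. In SKMES1, the remaining line that listed it, IL1A stood at 0.17 in the authors' deposited table. In EBC1, IL1B and IL18 went the other way and fell by 0.72 and 0.39 (adjusted p = 0.015 and 0.0117 in the authors' deposited table). IL1B was not called in SKMES1 (−0.26), NCIH1563 (0.17) or PC9 (−0.55) in the authors' deposited table. IL18 had no further call over its 8 lines.

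LIF showed opposite directions by line. It fell in all 4 LUSC lines that listed it, by 1.16 in EBC1, 0.29 in NCIH226, 0.96 in SKMES1 and 0.45 in SW900 (adjusted p = 9.37e-35, 0.00504, 8.14e-28 and 1.19e-09 in the authors' deposited table). In the LUAD lines it rose in NCIH1563 and was not called in NCIH1975 (0.04) or PC9 (−0.33) in the authors' deposited table. Its mean level over both arms was 15.0 CPM in NCIH1563 and 38.6 to 167.4 CPM in the other 6 lines, each scaled within its line. The line in which LIF rose was thus the one with its lowest level.

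IL32, an intracellular and secreted cytokine that induces other inflammatory cytokines, was called higher in 5 of its 7 lines and lower in 0 by the authors' deposited table. In the authors' deposited table IL32 (ENSG00000008517, chromosome 16, 3065297 to 3082192) was higher in EBC1 (1.29), SKMES1 (0.40), SW900 (1.03), NCIH1563 (3.07) and NCIH1975 (1.76). It was not called in NCIH226 (−0.24) or PC9 (0.33) in the authors' deposited table. CSF1 was also higher in 5 lines, EBC1 (1.33), SKMES1 (0.22), SW900 (0.45), NCIH1563 (1.40) and NCIH1975 (0.90), and lower in NCIH226 (−0.48), in the authors' deposited table. These are the same 5 lines for both genes. CSF1 stood at −0.32 in NCIH522 and 0.05 in PC9 in the authors' deposited table.

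Of the NF-kB subunits, RELB and NFKB2, the pair of the alternative pathway, rose in NCIH1563 by 1.53 and 1.51 (adjusted p = 6.54e-10 and 1.65e-13 in the authors' deposited table). RELA, the main activating subunit of the canonical pathway, rose there by 0.74 (adjusted p = 0.000291 in the authors' deposited table). NFKB1, which encodes the p105 precursor of p50, stood at −0.08 in NCIH1563 and was called in 0 of 10 lines, with a range of −0.19 to 0.64 in the authors' deposited table. NFKB2 was also higher in LK2, at 0.65 (adjusted p = 0.00031), and lay between −0.28 and 0.30 in the other 8 lines in the authors' deposited table. RELB was not called in the other 8 lines that list it, from −0.70 in PC9 to 0.56 in NCIH520 in the authors' deposited table. RELA was higher in EBC1 (0.23), NCIH226 (0.25) and NCIH520 (0.26) as well in the authors' deposited table, and lower in 0 lines.

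Of the inhibitors and feedback regulators, NFKBIE and TNIP1 rose in NCIH1563 by 1.30 and 1.27 (adjusted p = 2.47e-08 and 1.45e-10 in the authors' deposited table). NFKBIE is the inhibitor IkB epsilon, and TNIP1 binds ubiquitin and works with the deubiquitinating enzyme TNFAIP3. NFKBIA, which encodes IkB alpha and is a classical early target, stood at −0.04 in that line, and TNFAIP3 at −0.03, neither called in the authors' deposited table. The feedback genes of NCIH1563 were therefore not changed alike. NFKBIZ, a nuclear IkB protein that acts as a coactivator, rose in NCIH1563 by 0.85 and in NCIH1975 by 1.66 (adjusted p = 0.00832 and 0.0222 in the authors' deposited table). Its implied normalized counts with DMSO there were 290 and 135.3, and its means over both arms 1.03 and 0.78 CPM per kilobase. It was thus low for its length and may be listed in these lines through the treated arm, which favors a rise. NFKBIZ had values of −0.33 to 0.21 in its other 7 lines in the authors' deposited table. BCL3, a nuclear IkB protein that partners p50 and p52, rose by 1.06 in EBC1 and fell by 0.91 in NCIH226, 0.54 in NCIH1563 and 0.20 in SW900 (adjusted p = 1.56e-18, 7.8e-08, 0.00694 and 0.0355 in the authors' deposited table). It stood between −0.63 and 0.37 in the other 5 lines in the authors' deposited table.

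NFKBIE also rose in NCIH226 (0.45) and SKMES1 (0.41) and stood between −0.50 and 0.43 in the other 7 lines in the authors' deposited table. TNIP1 was higher in LK2 (0.27), SKMES1 (0.25) and SW900 (0.18) as well, and lay between −0.37 and 0.17 in the remaining 6 lines in the authors' deposited table. NFKBIA was called once, higher in EBC1 (0.31), within a range of −0.23 to 0.31 over 10 lines in the authors' deposited table. TNFAIP3 was higher in EBC1 (0.67) and SKMES1 (0.49) and lower in SW900 (−0.25) in the authors' deposited table.

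The survival genes BIRC3 and TRAF1, which encode proteins of the TNF receptor complex, rose together in a pair of lines. BIRC3 rose by 2.44 and 0.45 and TRAF1 by 1.07 and 0.55 in NCIH1563 and SKMES1 (adjusted p = 4.9e-07, 4.77e-06, 0.000459 and 1.16e-08 in the authors' deposited table). BIRC3 was low with DMSO in NCIH1563 and may be listed there through the treated arm. In EBC1 and SW900 BIRC3 also rose, by 0.82 and 0.45, and in NCIH226 it stood at −0.41 (adjusted p = 0.0565) in the authors' deposited table. TRAF1 fell in SW900, by 0.47, and stood at 0.21 in EBC1, 0.25 in NCIH1975 and −0.05 in NCIH522 in the authors' deposited table. IER3, an immediate early survival gene, rose in NCIH1563 (1.80), NCIH226 (0.95) and SW900 (0.33) and fell in EBC1 (−0.31) and SKMES1 (−0.26) in the authors' deposited table. In the other 5 lines it stood between −0.09 and 0.30 in the authors' deposited table.

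ICAM1 (ENSG00000090339, chromosome 19, 10270835 to 10286615), the adhesion ligand of leukocyte integrins, was listed in 6 lines. It rose in EBC1 (1.19), SKMES1 (0.51), SW900 (0.62) and NCIH1975 (1.01) in the authors' deposited table. It stood at 0.76 in PC9 (adjusted p = 0.0969) and fell by 0.24 in NCIH226 in the authors' deposited table. The mean level of ICAM1 over both arms ran from 3.6 CPM in EBC1 to 243.3 CPM in NCIH226, so the line with the highest level was the one in which it fell. In EBC1 it was low with DMSO, at 141.1 implied normalized counts, and may be listed there through the treated arm. ICAM1 overlaps a pair of antisense transcripts. CFLAR, an inhibitor of caspase-8, rose in NCIH226 (0.49) and SKMES1 (0.33) and fell in none, within −0.19 to 0.57 over 10 lines in the authors' deposited table. SOD2, the mitochondrial superoxide dismutase, rose in SKMES1 (0.41) and fell in NCIH226 (−0.31) and NCIH1563 (−0.61) in the authors' deposited table. TNFAIP2 rose in EBC1 (0.50) and SKMES1 (0.42) and fell in NCIH226 (−0.44) and NCIH1563 (−0.51) in the authors' deposited table. SOD2 and TNFAIP2 thus fell in the line in which most members rose.

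Members spanned wide ranges of level over the lines. In CPM per kilobase, the median level over lines was 50.6 for IER3, 41.3 for TNFAIP2, 39.8 for TNIP1, 32.4 for RELA and 31.5 for NFKBIA, the highest 5 among members listed in all 10 lines. Among the cytokines, LIF (16), IL18 (10.7) and CSF1 (10.3) had higher median levels than IL1B (1.68), IL6 (1.06) and IL1A (0.913). IL32 ranged from 1.31 to 104 over its 7 lines and BIRC3 from 0.37 to 48.7 over its 5, on the same scale. Of the members listed in all 10 lines, RELA (17.8 to 49.3) and NFKB1 (6.27 to 21.8) varied least.

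With the line as the replicate, each gene's mean log2 fold change over lines was tested with limma, adjusted by Benjamini-Hochberg over all genes fitted. Among the 11 members with values in all 10 lines, CXCL16 was higher (0.69 ± 0.72, SD, n = 10, positive in 8 of 10, limma adjusted p = 0.0208). That is 1 of 11 members higher and 0 lower by limma, beside 9.5% higher and 12.1% lower of the 9339 genes fitted. At an unadjusted limma p under 0.05 there were 2 of the 11, beside 34.6% of these genes. The call for CXCL16 was lost without EBC1 (limma adjusted p = 0.0511). Over genes in at least 5 lines, 2 of 27 members were higher and 0 lower by limma, beside 9.31% and 10.2% of 13641 genes. At an unadjusted limma p under 0.05 there were 3 of the 27, beside 33.7% of these genes. The 2 members called were CXCL16 (limma adjusted p = 0.0319) and ICAM1 (0.64 ± 0.50, SD, n = 6, positive in 5 of 6, limma adjusted p = 0.0388). IL32 had the largest mean, 1.09 ± 1.10 (SD, n = 7, positive in 6 of 7), and did not pass (limma adjusted p = 0.0534). Without NCIH226 it passed, at 1.31 (limma adjusted p = 0.034). Without NCIH1563, LIF passed as lower, at −0.52 (n = 6, limma adjusted p = 0.0457), where its mean over 7 lines was −0.24 ± 0.84 (limma adjusted p = 0.565). The calls for CXCL16 and ICAM1 in the fit over at least 5 lines were each lost without EBC1 (limma adjusted p = 0.0698 and 0.0956), without SKMES1 (0.0603 and 0.075) or without NCIH1975 (0.0684 and 0.0964). That for CXCL16 was also lost without LK2 (limma adjusted p = 0.0597), and that for ICAM1 without SW900 (0.0844) or PC9 (0.0828). ICAM1 in EBC1 and CXCL16 in SKMES1 and NCIH1975 were low with DMSO, at 141.1, 104.1 and 166.9 implied normalized counts. Both genes may be listed in those lines through the treated arm, which favors a rise.

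Means were mostly positive among the 27 members, 22 of them above 0, with a median of 0.23 against 0.01 over all genes fitted. This count covers members that passed the cutoff in at least 5 lines, and no more than 2 of them passed the test, so the shift of the median is given as a description.

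**Figure D4:**
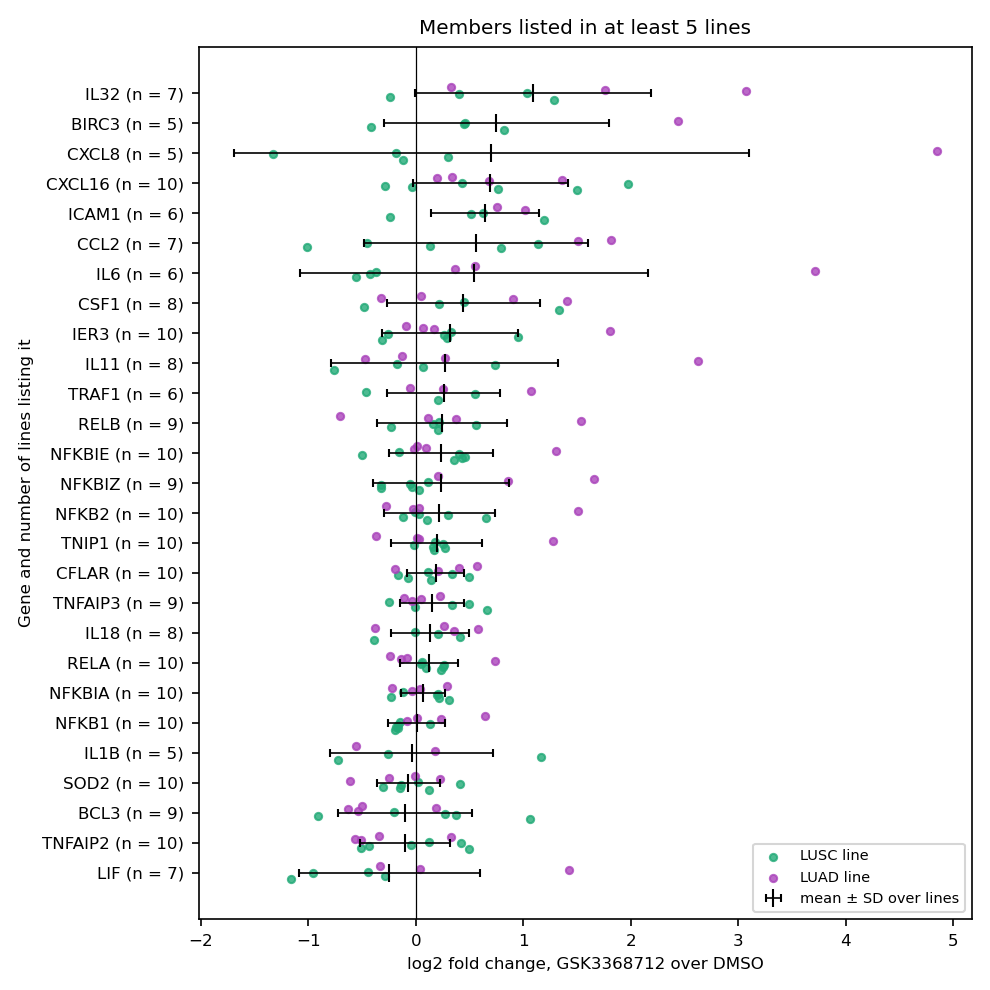
Log2 fold change in each line (green LUSC, purple LUAD) for the 27 members listed in at least 5 lines, with the mean ± SD over lines in black and the number of lines beside each name. The widest spreads belong to CXCL8 and IL6, whose NCIH1563 values of 4.85 and 3.71 lie far to the right of the other lines.

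Fold changes of most members differed between lines by more than the authors' standard errors. Cochran's Q, which weighs each fold change by its deposited standard error, adjusted by Benjamini-Hochberg, called 26 of the 27 members as differing between lines, beside 64.4% of all genes fitted. The exception was NFKB1 (adjusted p = 0.0827). The largest Q values were those of CXCL8 (206.3 over 5 lines), IER3 (200.9 over 10), LIF (175.1 over 7), IL11 (163.3 over 8) and CCL2 (157.5 over 7). The smallest among the members called were RELA (21.6 over 10 lines) and NFKBIZ (24.1 over 9). Without NCIH1563, 22 of the members were called. The standard errors come from 2 libraries per arm, whose spread may be technical and smaller than that between cultures, and with standard errors 1.5 times as wide 19 members were called. The share of all genes called without NCIH1563 or with the wider errors is not given here.

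The subtypes were not separated for any member. In the limma comparison of LUSC with LUAD lines, 0 of 22 members passed the Benjamini-Hochberg adjusted p and 3 an unadjusted p under 0.05, beside 0% of 11620 genes adjusted and 687 of them unadjusted. The 3 were NFKBIZ, at −0.10 in LUSC and 0.90 in LUAD lines (limma adjusted p = 0.648), LIF, at −0.71 and 0.38 (limma adjusted p = 0.782), and IL6, at −0.45 and 1.54 (limma adjusted p = 0.819). NCIH1563 is 1 of the 3 LUAD lines behind each of these 3 means.

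Other genes of the pathway were taken from 9 lists of 108 genes, of which 75 had values in at least 5 lines. By limma 7 of the 75 were higher and 1 lower, where 9.31% and 10.2% of all genes fitted were called, so the count of higher genes was near the background. The receptors (0 of 9) and the kinases of the pathway (0 of 10) had no limma call in either direction (2 and 3 at an unadjusted p under 0.05, and 2 and 5 by a random-effects model). Of all genes fitted, 33.7% had an unadjusted limma p under 0.05, and the share called by the random-effects model is not given here. Of the 15 adaptors and ubiquitin enzymes 1 was lower. It was IRAK4, the kinase that relays Toll-like and interleukin-1 receptor signals from MYD88, which fell by 0.79 ± 0.32 (SD, n = 10) with a negative value in 10 of 10 lines (limma adjusted p = 0.000529). The fall of IRAK4 ranged from −0.38 in NCIH520 to −1.51 in NCIH1563 in the authors' deposited table. NCIH1563 thus had both the largest fall of IRAK4 and the largest rises of CXCL8 and IL6. It also had the largest share of all listed genes with the authors' mark for fold and p, at 18.3%. A link between IRAK4 and these cytokines was not tested.

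Interleukin-1 processing and decoy genes had 3 of 5 higher and 0 lower by limma, beside 9.31% and 10.2% of all genes fitted, with a median mean of 0.65 beside 0.01. The lists were written with earlier results of these data known, so this contrast is a description. IL18BP, the secreted decoy of interleukin-18, rose by 0.70 ± 0.25 (SD, n = 9, positive in 9 of 9, limma adjusted p = 0.000684), and it overlaps NUMA1 on the opposite strand. CASP4, an inflammatory caspase that senses lipopolysaccharide, rose by 0.65 ± 0.39 (SD, n = 9, positive in 9 of 9, limma adjusted p = 0.00485). CASP1, the caspase that matures IL1B and IL18, rose by 1.22 ± 0.99 (SD, n = 6, positive in 5 of 6, limma adjusted p = 0.0344). IL18R1 of the same list went the other way without passing, at −0.55 ± 0.49 (SD, n = 6, negative in 5 of 6, limma adjusted p = 0.0616). IL18 itself stood at 0.13 ± 0.36 (SD, n = 8, limma adjusted p = 0.488), so the cytokine was not called while its decoy was. The call for CASP1 was lost without any one of SKMES1, SW900, NCIH1563, NCIH1975 or PC9 (limma adjusted p = 0.0511 to 0.0888).

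In the fit over at least 5 lines, the remaining lists held single calls or none. TNIP2, a relative of TNIP1, rose by 0.28 ± 0.24 (SD, n = 10, limma adjusted p = 0.0341; 1 of 5 remaining subunits and inhibitors). GADD45B, a stress-induced target, rose by 0.54 ± 0.49 (SD, n = 10, positive in 9 of 10, limma adjusted p = 0.0215; 1 of 14 other targets). CCL26 rose by 1.38 ± 1.14 (SD, n = 5, positive in 4 of 5, limma adjusted p = 0.0482; 1 of 2 other chemokines). IL11RA, the receptor of IL11, rose by 0.69 ± 0.74 (SD, n = 9, limma adjusted p = 0.0442; 1 of 11 genes of IL6 family receptors and STAT3 signalling) and overlaps GALT on the same strand, so its read assignment is uncertain. The other cytokines had 0 of 4 called by limma (0 at an unadjusted p under 0.05, and 0 by a random-effects model). IRF1, of the other targets, did not pass there (limma adjusted p = 0.0594). In the fit over genes in all 10 lines it was higher (0.36 ± 0.41, SD, n = 10, positive in 9 of 10, limma adjusted p = 0.0438). The limma calls for TNIP2, CCL26 and IL11RA were lost in 5, 9 and 9 of the 10 fits that leave out a line, at adjusted p-values of up to 0.071, 0.127 and 0.0981. Over genes in at least 3 lines, CCL26 (limma adjusted p = 0.0567) and IL11RA (0.0503) were lost too, as was CCL26 with centred fold changes (0.0517). GADD45B was lost without NCIH1975, NCIH522 and PC9 together, a setting chosen after seeing the data (limma adjusted p = 0.0548).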

How the data were processed

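RNA-seq libraries of 10 lines (2 with DMSO and 2 with GSK3368712 per line) were processed by the authors. Per the submitters' processing notes, FastQC, Salmon 0.12.0, DESeq2 and the build GRCh38 were used, with versions otherwise not given in the sources used here. All values came from 1 table the authors deposited, with a comparison for each line: log2 fold changes and their standard errors, an adjusted p-value, the test statistic (a deposited score), the authors' mark for fold and p, and a mean normalized count (a deposited signal averaged over the libraries of a line). Per the labels, genes at or below an FPKM of 1 were filtered out per comparison. Values per library were not analysed here, so depth and counting error are unknown. The summed mean normalized count was 57647556 to 108557964 per line.

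Symbols selected the members. Arm levels were computed from the mean normalized count and the fold change, with 2 libraries per arm assumed. Across lines, limma 3.58.1 (R 4.3.3) tested 1 fold change per line, and Cochran's Q used the authors' standard errors, each with Benjamini-Hochberg adjustment at 0.05. The scripts were tested on simulated data. Annotation was from GENCODE 29, and Python 3.11.15 with pandas 2.3.3 and matplotlib 3.10.9 was used. The members, lists, tests and the rule for named genes were chosen with earlier results of these data known. Values in every line are given for members called in some line at a log2 fold change of 1 or more in size or passing limma, and up to 4 genes are named per further list. CXCL6, CXCL11 and CX3CL1 were named after their values were seen. Alternatives were other filters, centring, an ordinary test, a random-effects model and leaving out each line.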

Additional observations from a re-analysis of the deposited data

Results flagged for a closer look

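In 29 members listed in 4 to 10 lines, the value of the most extreme line was set against the others by Dixon's ratio of its gap to the whole range. A single line stood apart for 8 of them (27.6%), where chance gives about 1 in 20 and the same rule takes 17.1% of the 14475 genes in at least 4 lines. In 7 of the 8 (24.1% of the 29) that line was NCIH1563, which stood apart for 11.9% of all these genes. The fold changes there were 4.85 for CXCL8 (next highest line 0.30), 3.71 for IL6 (0.55) and 2.63 for IL11 (0.74) in the authors' deposited table. CXCL8 and IL6 were low with DMSO there, at 21.8 and 25.2 implied normalized counts. Both may be listed through the treated arm, which favors a high value, so the count of lines apart is a description. For regulators of the pathway they were 1.51 for NFKB2 (next highest line 0.65), 0.74 for RELA (0.26), 1.30 for NFKBIE (0.45) and 1.27 for TNIP1 (0.27) in the authors' deposited table. The eighth was NFKB1 in PC9, at 0.64 (next highest line 0.23), which the authors' deposited table does not call (adjusted p = 0.222).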

How the results depend on the processing

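No result changed direction under the alternatives run. Where a log2 fold change of 1 or more in size was also required, 30 pairs of member and line were higher and 8 lower, in place of 66 and 32. By line, 1.06% (NCIH522) to 18.3% (NCIH1563) of all listed genes carried the authors' mark for fold and p, in either direction. Among the top 75% of genes by mean normalized count, NCIH1563 had 10 members higher in place of 17, NCIH1975 3 in place of 6, LK2 2 in place of 4, and SKMES1 4 lower in place of 8, since fewer members are then counted. The members kept in these lines were 18, 20, 8 and 26. Of all genes kept, 26.5%, 3.69% and 19.7% were higher in NCIH1563, NCIH1975 and LK2, and 18.9% were lower in SKMES1. Over all 10 lines, an ordinary one-sample test with Benjamini-Hochberg adjustment called 0 members, with CXCL16 at an adjusted p of 0.064. Over at least 5 lines, a random-effects model called 6 members higher (IL32, BIRC3, ICAM1, TNIP1, CXCL16 and RELA), and limma called IL32 among genes in at least 7 lines (adjusted p = 0.0468). The share of all genes called by the random-effects model is not given here. Without NCIH1975, NCIH522 and PC9, the lines with the widest standard errors (an alternative chosen after seeing the data), limma called 0 members higher, with adjusted p-values of 0.0976 for CXCL16 and 0.194 for ICAM1. Leaving out each line in turn gave 0 to 1 members higher and 0 to 0 lower over 10 lines, 0 to 3 higher and 0 to 1 lower over at least 5 lines, and 0 to 0 either way between subtypes. IRAK4, IL18BP and CASP4 passed in every one of these leave-outs. The causes of these changes were not tested. No paired analysis was possible because the table holds the authors' comparisons and no value per library. Precision rests on 2 libraries per arm, and library depth is unknown.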
